A study of Mus musculus with 6 samples.

Results

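The genes described here are 9 transcription factor genes of the neural lineage, Pax6, Sox1, Otx2, Neurog1, Neurog2, Neurod1, Olig2, Pou3f1 and Zic1, out of 21938 protein-coding genes of the GENCODE vM21 annotation. For each gene, all H3K4me3 and ASH2L CUT&RUN peaks were collected that overlapped the gene body or the 5 kb upstream of it, a stretch called the window below. The cells were E14, a mouse embryonic stem (ES) cell line, kept with serum and LIF, and none of the samples was differentiated. In CUT&RUN, a nuclease is tethered by an antibody to chromatin inside permeabilized cells, and the DNA it cuts free is sequenced. The 6 samples formed 3 groups of 2 biological duplicates. These were HA-ASH2L E14 cells with anti-H3K4me3, HA-ASH2L E14 cells with anti-HA, and parental E14 cells with anti-HA, whose genotype label is WT. The cells were given doxycycline for 48 h. The genotype label of the HA-ASH2L cells reads HA-Ash2L knock-in, whereas the methods describe a doxycycline-inducible PiggyBac transgene and single colonies picked after selection, so the line may be 1 clone that carries the tagged protein beside its own. The labels give 1000000 cells per anti-HA sample and 100000 per anti-H3K4me3 sample, whereas the methods give the larger number for every experiment. The 2 peak lists used here, for ASH2L and for H3K4me3, were each called on merged duplicates. The parental anti-HA signal was not analysed here. No spread between samples could therefore be computed, no test was run, and every value below is the value of 1 merged list.

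Trimethylation of histone H3 at lysine 4 (H3K4me3) is laid down around transcription start sites by the MLL/SET1 enzymes, which work in a complex with ASH2L and other core subunits. In ES cells, promoters rich in CpG carry this mark at expressed genes and also at many silent developmental genes, where it lies together with the repressive mark H3K27me3, a state named bivalent. Neither RNA nor H3K27me3 was measured here. Otx2 encodes a homeodomain factor of the epiblast and the anterior neural plate, Sox1 an HMG-box factor that marks the early neuroectoderm, Pou3f1 a POU factor that acts in neural commitment, and Zic1 a zinc finger factor of the neural plate and the neural crest. Pax6 and Olig2 pattern neural progenitors. Neurog1, Neurog2 and Neurod1 are basic helix-loop-helix factors that drive neuronal differentiation.

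In these undifferentiated cells, all 9 genes carried H3K4me3 in the window, beside 76.2% of coding genes, and in each of them a peak lay on an annotated start site, beside 67.3%. None of the 9 windows held an ASH2L peak, beside 10.4% of coding genes with one. The start-site peaks were 2040 to 6813 bp long, and 7 of the 9 had a fold enrichment below the median of the H3K4me3 list, beside 51.7% of coding genes with a marked start site. Neurod1 and Pou3f1 had the longest peaks, and Pax6 and Otx2 had most of their annotated start sites outside any peak.

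To show the DNA beneath these peaks, 300 bases around a start site, 250 bp before it and 50 bp after, were taken on GRCm38.p6, the assembly also called mm10. The RefSeq promoter table held entries for 8 of the 9 genes. It held none for Pou3f1. Neurod1 is shown because it had the longest peak of the 9, and Neurog1 because it had a short peak with a fold enrichment above the list median. Pax6 is shown with a start site in a peak and with a start site outside any peak, and Otx2 with a start site outside any peak. The sequences are from the RefSeq table. They run 5′ to 3′ on the strand of the gene and each CpG is in capitals.
Neurod1, start site in a peak, chr2:79456587-79456886, minus strand: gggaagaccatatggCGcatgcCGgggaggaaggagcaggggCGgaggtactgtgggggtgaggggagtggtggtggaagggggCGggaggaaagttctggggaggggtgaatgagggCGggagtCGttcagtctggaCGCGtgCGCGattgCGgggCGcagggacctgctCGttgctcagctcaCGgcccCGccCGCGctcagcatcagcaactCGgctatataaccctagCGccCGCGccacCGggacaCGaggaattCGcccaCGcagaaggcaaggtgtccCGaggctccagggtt
Neurog1, start site in a peak, chr13:56252131-56252430, minus strand: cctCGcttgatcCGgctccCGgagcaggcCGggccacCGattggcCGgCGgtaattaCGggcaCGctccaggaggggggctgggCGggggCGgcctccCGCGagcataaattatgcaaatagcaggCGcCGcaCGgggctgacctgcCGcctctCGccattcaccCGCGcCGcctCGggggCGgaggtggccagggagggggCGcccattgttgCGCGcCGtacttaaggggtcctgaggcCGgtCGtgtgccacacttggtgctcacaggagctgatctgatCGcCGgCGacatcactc
Pax6, start site in a peak, chr2:105668646-105668945, plus strand: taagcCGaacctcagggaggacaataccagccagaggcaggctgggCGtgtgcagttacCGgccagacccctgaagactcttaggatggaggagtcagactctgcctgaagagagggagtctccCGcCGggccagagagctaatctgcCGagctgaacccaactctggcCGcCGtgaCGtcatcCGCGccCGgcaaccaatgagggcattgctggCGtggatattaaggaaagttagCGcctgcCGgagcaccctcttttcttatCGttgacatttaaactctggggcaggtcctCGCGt
Pax6, start site outside peaks, chr2:105682213-105682512, plus strand: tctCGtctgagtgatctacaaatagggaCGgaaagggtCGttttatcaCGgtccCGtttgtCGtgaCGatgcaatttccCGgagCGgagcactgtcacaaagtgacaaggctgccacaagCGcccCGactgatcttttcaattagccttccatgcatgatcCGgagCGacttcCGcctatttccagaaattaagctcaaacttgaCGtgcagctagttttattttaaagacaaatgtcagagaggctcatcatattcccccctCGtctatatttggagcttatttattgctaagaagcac
Otx2, start site outside peaks, chr14:48665060-48665359, minus strand: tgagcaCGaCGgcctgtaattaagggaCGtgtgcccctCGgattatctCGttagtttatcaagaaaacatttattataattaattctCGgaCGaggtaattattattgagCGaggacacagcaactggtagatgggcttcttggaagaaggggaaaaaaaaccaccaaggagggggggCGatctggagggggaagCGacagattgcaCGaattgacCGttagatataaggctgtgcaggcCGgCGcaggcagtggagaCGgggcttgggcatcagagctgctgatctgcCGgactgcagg

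The first 3 of these sequences lay wholly within an H3K4me3 peak. They held 26 CpG dinucleotides at Neurod1, 32 at Neurog1 and 18 at Pax6. The Pax6 and Otx2 sequences outside peaks held 16 each, so that at Pax6 the sequence within the peak and the one outside differed by few CpG. The Pax6 site outside peaks lay 13563 bp downstream of the 5′ end of the gene and 11957 bp from the nearest peak. The Otx2 site outside peaks lay 8710 bp downstream of the 5′ end and 8154 bp from the nearest peak. The table gave 12 promoters for the 8 genes. Of these, 7 had their start site in a peak and held 10 to 37 CpG (median 26), and 5, all of Pax6 or Otx2, had it outside and held 6 to 16 (median 11). The share in a peak was thus 58.3%, beside 65.0% of the coding-gene promoters of the table. Over 20150 promoters of coding genes in the table, the median was 21 CpG for those with the start site in a peak and 3 for those outside. The letters GGGCGG, searched on both strands, occurred in 6 of the 7 promoters of the 9 factors in peaks and in 0 of the 5 outside, against 66.0% of the coding-gene promoters in peaks and 988 of 7062 outside. The letters CCAAT, on both strands, occurred in 5 of the 7 and in 1 of the 5, against 37.2% of coding-gene promoters in peaks and 38.9% outside. The letters TATAAA, on both strands, occurred in the promoter of Olig2 and in 1 promoter of Otx2 outside peaks, against 6.32% of coding-gene promoters in peaks and 23.0% outside. Matches of different letters can share bases, which occurred in 0 of the 12 promoters of the 9 factors and in 107 of the 20150 coding-gene promoters.

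The lists rest on 27328071 tags for H3K4me3 and 25677963 for ASH2L after filtering. A tag is a sequenced read placed on the genome, and tags at the same position were kept once. For H3K4me3, 59927 peaks were listed, with a median length of 1453 bp and 45.7% of the tags. For ASH2L, 2464 were listed, with a median length of 717 bp and 0.398% of the tags. The longest H3K4me3 peak was 8609 bp. The peak caller took the background of each peak from up to 10000 bp around it in the same library, with no control library, so the tags of a long peak enter its own background. Of 8 ES cell markers, 5 (Esrrb, Klf4, Tfcp2l1, Zfp42 and Dppa3) had H3K4me3 on a start site and Sall4 had a peak elsewhere in its window. The list used here held no peak in the windows of Pou5f1 and Nanog, which define these cells. The nearest H3K4me3 peak lay 7016 bp from the 5′ end of Pou5f1, where it was 6166 bp long with 974 tags, and 10597 bp from that of Nanog. A start site outside the listed peaks is therefore not shown to lack the mark, and the part of the peak calling in this was not tested.

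An H3K4me3 peak lay in the window of 9 of 9 genes, beside 76.2% of all coding genes. Among the 12629 coding genes with windows as long as those of the 9 factors (6686 to 33465 bp), the share was 70.1%. A peak lay on a start site in 9 of 9 (95% Wilson interval 70.1% to 100%), beside 67.3% of all coding genes and 60.6% of those with windows as long. Wilson intervals cover counting error only. Both start-site shares lie below the lower bound of this interval. For the window, where the count and so the interval are the same, the interval includes the 76.2% and has the 70.1% of windows as long at its edge. The 9 genes were not drawn at random, so these positions are no test of a difference. Under RefSeq gene models, or with a score of 100 or more, both counts were 8 of 9, for which no interval was computed. In all, 12 H3K4me3 peaks lay in the 9 windows. Neurog2, Olig2 and Zic1 had 2 peaks each and the other 6 genes had 1, that is 3 of 9 genes (33.3%) with 2 or more, beside 43.2% of all coding genes and 30.3% of those with windows as long. The 9 genes have 43 annotated start sites, of which 12 lay in a peak, beside 55.4% of the 93513 annotated start sites of coding genes. The map of peaks along the genes shows their positions.

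**Figure D1:**
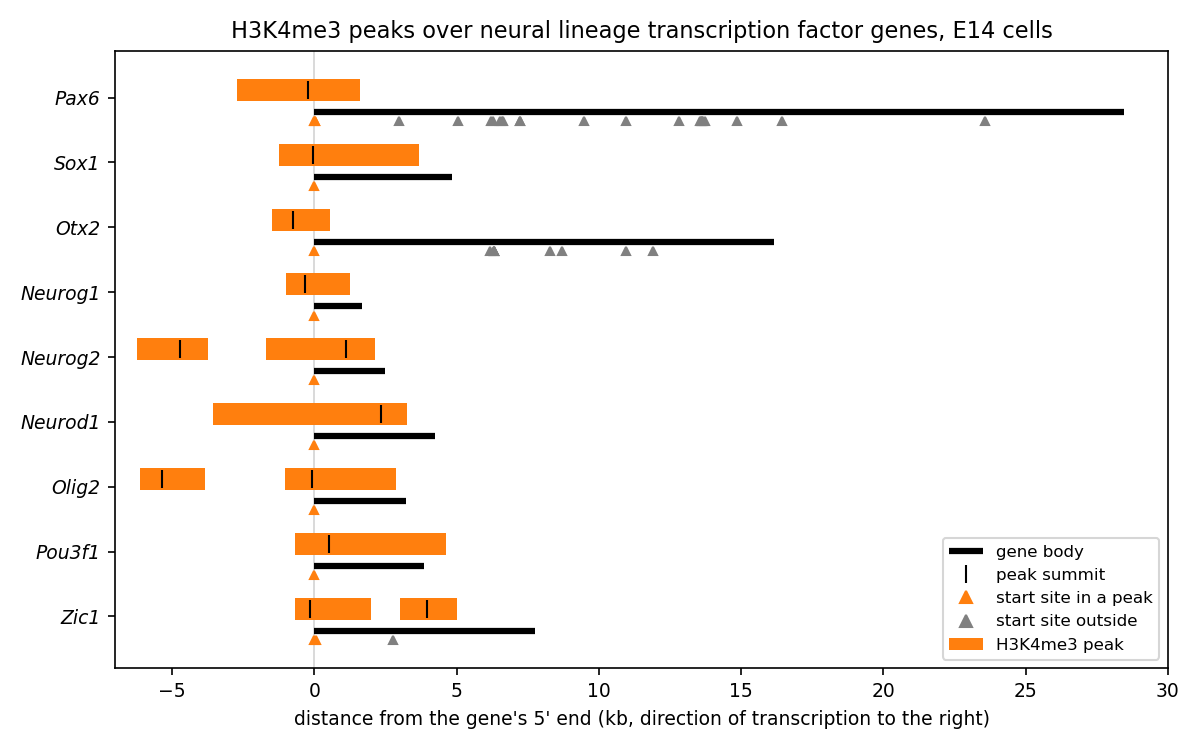
H3K4me3 peaks (orange bars, summit as a vertical tick) along the 9 genes, drawn to scale by distance from the 5′ end of each gene in kb, with the gene body as a black bar and each annotated start site as a triangle, orange in a peak and grey outside. In every gene a bar covers the 5′ end, and the grey triangles belong to Pax6, Otx2 and Zic1, with 31 sites in all.

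Among the early neural factors, the Sox1 peak was the densest of the 9. At Sox1, a gene of 4832 bp without an intron in its coding sequence (ENSMUSG00000096014.1), the peak extended over chr8:12394056-12398966 and was 4911 bp long. It held 848 tags (95% Poisson interval 792 to 907, counting error only), or 173 tags per kb. Its fold enrichment, the ratio of summit tags over the background that the caller modelled, was 3.07. The summit lay at -39 bp from the start site, so this peak was centred on the 5′ end in its highest point but reached 3671 bp downstream and only 1239 bp upstream. It covered 76.0% of the gene body and 100% of the coding sequence. At Pou3f1 (ENSMUSG00000090125.3), the peak at chr4:124656126-124661421 was 5296 bp long with 753 tags (700 to 809), 142 tags per kb and a fold enrichment of 3.44. It covered the whole gene of 3849 bp and reached past its end.

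The Zic1 and Otx2 peaks were shorter. At Zic1 (ENSMUSG00000032368.14), the start-site peak at chr9:91363835-91366497 was 2663 bp long with 277 tags (245 to 312), 104 tags per kb and a fold enrichment of 4.26. A second peak of 2005 bp with 217 tags and a fold enrichment of 4.28 lay inside the gene, from 3018 to 5022 bp downstream of the 5′ end. The gap between the Zic1 peaks was 1042 bp, and together they covered all of the coding sequence. The start site of a non-coding transcript of Zic1, 2756 bp downstream of the 5′ end, lay in this gap, 262 bp from a peak. At Otx2 (ENSMUSG00000021848.16), the peak at chr14:48673263-48675302 was the shortest of the 9, with 2040 bp, 231 tags (202 to 263) and 113 tags per kb. Its fold enrichment of 6.05 was the third highest of the 9, and its summit lay at -766 bp from the 5′ end, that is upstream. This peak covered only 3.45% of the Otx2 gene body and none of the coding sequence.

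The progenitor factors Pax6 and Olig2 had peaks of like length. At Pax6 (ENSMUSG00000027168.21), the peak at chr2:105666167-105670506 was 4340 bp long with 492 tags (449 to 537), 113 tags per kb and a fold enrichment of 3.55. It reached further upstream (2733 bp) than downstream (1606 bp), covered 5.65% of the gene of 28465 bp and touched no coding sequence. At Olig2 (ENSMUSG00000039830.9), the start-site peak at chr16:91224413-91228314 was 3902 bp long with 410 tags (371 to 452), 105 tags per kb and a fold enrichment of 3.93. It covered 88.7% of the gene body and all of the coding sequence. The p-value score of Olig2, the negative log10 of the p-value times 10, was 70.01, the lowest among the start-site peaks of the 9 genes, where 50 is the cutoff of the list. A second Olig2 peak of 2298 bp with 167 tags, a fold enrichment of 4.06 and a score of 54.03 lay upstream of the gene, from -6135 to -3838 bp, with a gap of 2793 bp to the first. Both peaks of Olig2 thus lay near the cutoff.

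Of the 9 genes, the neuronal differentiation factor Neurod1 had the longest peak, and the proneural factors Neurog2 and Neurog1 had the highest fold enrichments. At Neurod1 (ENSMUSG00000034701.9), the peak at chr2:79453508-79460320 was 6813 bp long, longer than 97.1% of the longest start-site peaks of coding genes. It held 1022 tags (960 to 1087), the most of the 9, at 150 tags per kb, and its fold enrichment was 3.48. Its summit lay 2357 bp downstream of the start site, the furthest of the 9, and it covered 76.7% of the gene body and all of the coding sequence. At Neurog2 (ENSMUSG00000027967.8), the start-site peak at chr3:127631434-127635257 was 3824 bp long with 494 tags (451 to 540), 129 tags per kb and a fold enrichment of 6.94, the highest of the 9. A second Neurog2 peak of 2489 bp with 258 tags lay upstream, from -6224 to -3736 bp. Its fold enrichment was 2.44, and only 0.0117% of the peaks of the whole list had a lower one. At Neurog1 (ENSMUSG00000048904.5), the peak at chr13:56250915-56253164 was 2250 bp long with 257 tags (227 to 290), 114 tags per kb and a fold enrichment of 6.75. It covered 74.1% of the gene body and all of the coding sequence.

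**Figure D2:**
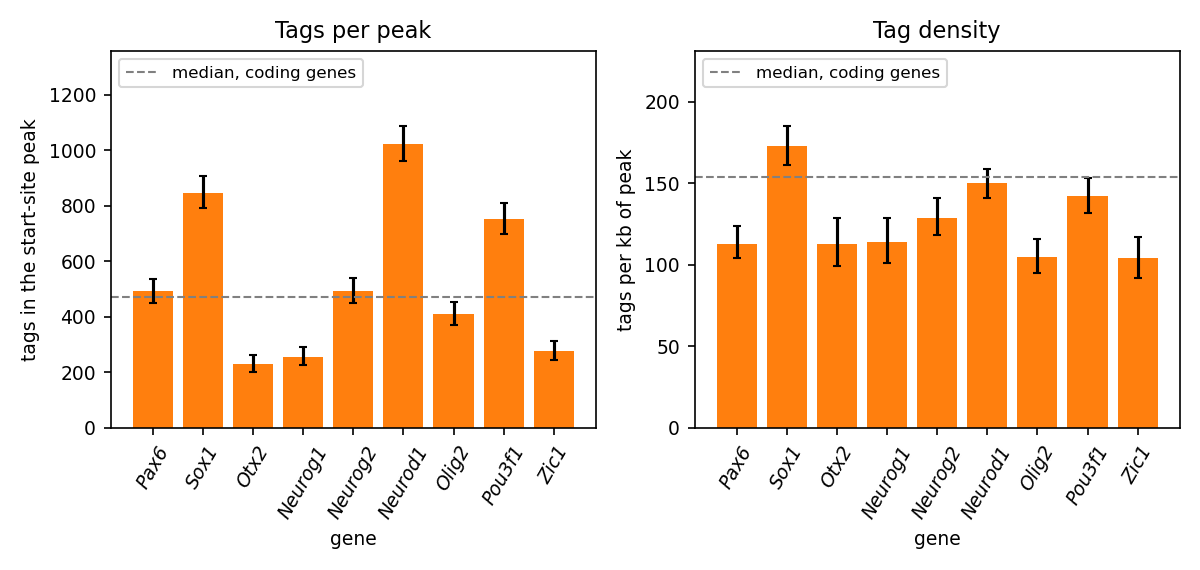
Tags in the longest start-site H3K4me3 peak of each gene (left) and tags per kb of that peak (right), with 95% Poisson intervals that cover counting error only and a dashed line at the median of coding genes. Tags range from 231 at Otx2 to 1022 at Neurod1, and Sox1 alone lies above the median density of 154 tags per kb.

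By tags, the genes fell into groups whose Poisson intervals did not meet, a description of counting error in 1 merged list and no test. Tags also followed peak length, with a Spearman's rho of 0.93 over the 9 genes and 0.92 over the 14772 coding genes with a marked start site. The intervals of Neurod1, Sox1 and Pou3f1 lay above those of all the other genes, and the interval of Neurod1 did not meet that of Sox1. The intervals of Pax6, Neurog2 and Olig2 met in pairs, as 449 to 537, 451 to 540 and 371 to 452, with those of Pax6 and Neurog2 nearly the same and that of Olig2 touching them only at its upper end. Those of Zic1, Neurog1 and Otx2 also met each other and lay below the rest. Per kb, the range was narrower, from 104 at Zic1 to 173 at Sox1, and 8 of the 9 genes lay below the coding median of 154 tags per kb. The spread between duplicates, which these intervals leave out, is not known.

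Start-site peaks of 5 kb or more occurred in 2 of the 9 genes, Neurod1 and Pou3f1 (22.2%, Wilson interval 6.32% to 54.7%), beside 8.60% of all coding genes, and the interval includes the background. With peaks joined over gaps of up to 3 kb, a setting chosen after seeing the data, Neurog2, Olig2 and Zic1 were added, that is 5 of 9 genes beside 15.6% of coding genes. Just below the 5 kb limit was Sox1 with 4911 bp. The median length over the 9 genes was 3902 bp, beside 2968 bp over the 14772 coding genes with a marked start site, and 6 of the 9 lay above that median. The median number of tags was 492 against 470, the median density 114 against 154 tags per kb, the median fold enrichment 3.93 against 6.36 and the median score 208 against 617. All 9 genes lay below the coding median in score. Fold enrichment was below the list median of 6.46 in 7 of the 9, all but Neurog1 and Neurog2, beside 51.7% of coding genes. It was below that median as well in 76.5% of the marked paralogues, 90.9% of the other marked neural factors, 90.0% of the marked naive pluripotency genes, 72.2% of the marked regulators of other lineages, 61.1% of the marked genes of differentiated neurons and glia and 3 of the 6 marked genes of other adult tissues, lists that are described below, so low fold enrichment is not particular to the 9 genes.

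**Figure D3:**
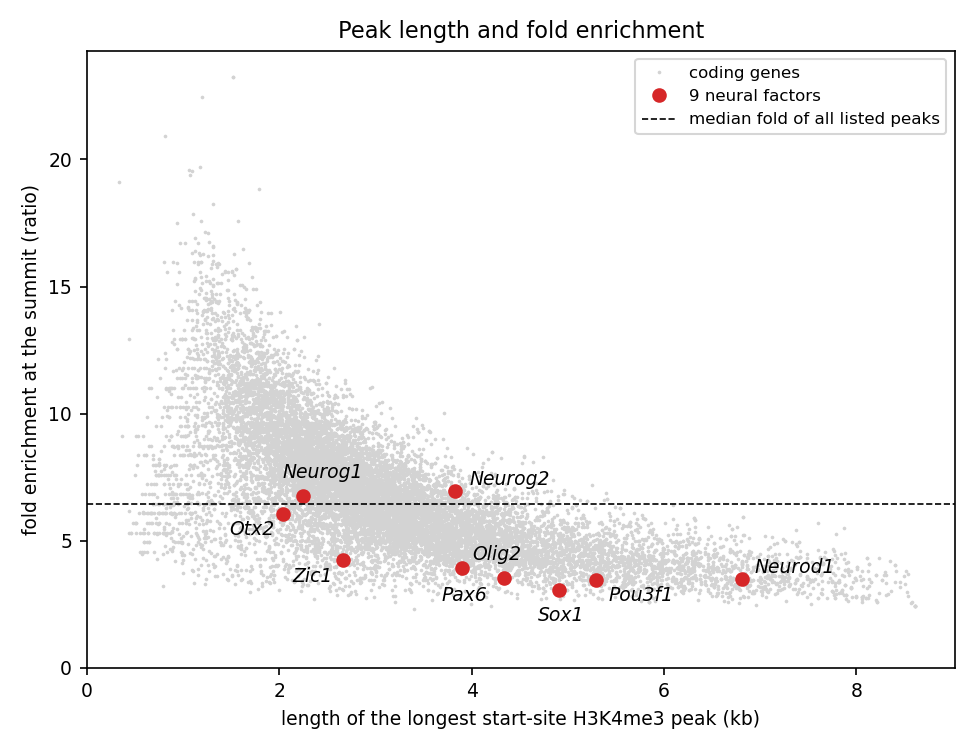
Length of the longest start-site H3K4me3 peak (kb) against its fold enrichment at the summit for 14772 coding genes (grey) and the 9 neural factors (red), with a dashed line at 6.46, the median fold enrichment of all listed peaks. From 1 kb on, longer peaks have lower fold enrichment, and Neurog2 (6.94) lies above the median of its length class while the other 8 lie below theirs.

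Fold enrichment fell with peak length over all coding genes from 1 kb on, so the low values of the neural factors are given beside peaks of their own length. The median fold enrichment was 7.17 for 305 start-site peaks under 1 kb, 9.55 for start-site peaks of 1 to 2 kb, 7.47 for 2 to 3 kb, 5.92 for 3 to 4 kb, 4.91 for 4 to 5 kb and 4.05 for 5 kb or more. Spearman's rho between length and fold enrichment was -0.74 over the 14772 genes and -0.82 over the 9, a description across genes that share 1 library. Neurog2 (6.94) lay above the median of its length class. The other 8 genes lay below theirs, with Otx2 (6.05), Neurog1 (6.75) and Zic1 (4.26) in the class with a median of 7.47, Olig2 (3.93) in the class with 5.92, Pax6 (3.55) and Sox1 (3.07) in the class with 4.91, and Neurod1 (3.48) and Pou3f1 (3.44) in the class with 4.05. Tags per kb also lay below the class medians of 156 to 167 tags per kb in all of the 9 but Sox1.

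Most annotated start sites of Pax6 and Otx2 were not in a peak, as in 31.9% of the 1755 coding genes with 10 or more start sites and at least 1 of them in a peak. Pax6 had 24 start sites, of which the 3 at the 5′ end, within 35 bp of each other, lay in the peak. The other 21 began 2960 bp downstream of the 5′ end and further on. Those at 5063 and 6209 bp, and all from 10967 bp on, start only transcripts that GENCODE does not annotate as protein-coding. The Pax6 site at 13563 bp, whose sequence is printed above, is among these. Otx2 had 10 start sites, and only the most distal lay in a peak. The other 9 Otx2 sites lay 6175 to 11887 bp downstream, with the nearest H3K4me3 peak 5203 to 8157 bp away. All 4 Otx2 promoters of the RefSeq table were among the unmarked sites, and with RefSeq gene models the window of Otx2 held no peak, so that 8 of 9 genes were marked, beside 75.8% of coding genes under the same models.

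The 5′ ends of 8 of the 9 genes, all but Pax6, lay in DNA with at least 0.6 times the CpG that its base composition predicts. The ratio of observed to expected CpG, taken over 1000 bp around the 5′ end, was 0.568 at Pax6, 0.651 at Pou3f1, 0.681 at Neurod1, 0.719 at Zic1, 0.758 at Neurog1 and at Olig2, 0.769 at Otx2, 0.805 at Sox1 and 0.854 at Neurog2. The median over the 9 genes was 0.758, beside 0.552 over coding genes. Of the 21938 coding genes, 5601 had a ratio from 0.6 to 0.8 and 4469 a ratio from 0.8. Coding genes were marked at the 5′ end in 4.97% of cases with a ratio under 0.2, 34.2% from 0.2 to 0.4, 86.0% from 0.4 to 0.6, 94.7% from 0.6 to 0.8 and 94.3% from 0.8. Pax6 was in the class from 0.4 to 0.6, Sox1 and Neurog2 in the highest class, and the other 6 in the class from 0.6 to 0.8. In their own classes, most coding genes were marked, as these 9 were.

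**Figure D4:**
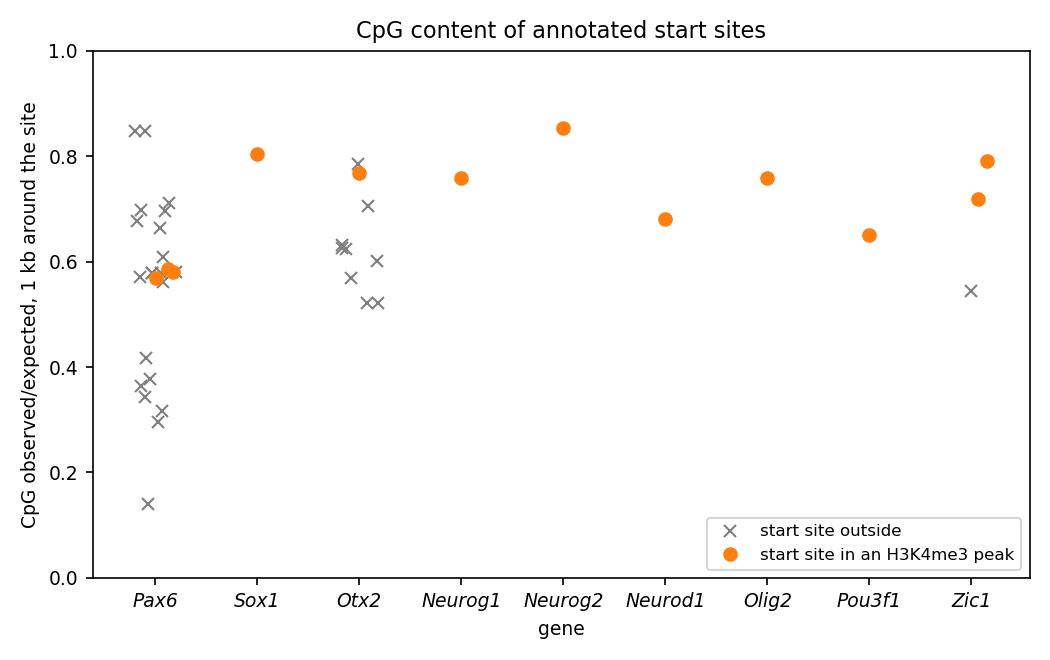
Ratio of observed to expected CpG in 1000 bp around each of the 43 annotated start sites of the 9 genes, with filled circles for the 12 sites in an H3K4me3 peak and crosses for the 31 outside. Sites in peaks range from 0.568 to 0.854, and sites outside, nearly all of Pax6 and Otx2, from 0.141 to 0.848.

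Pax6, Otx2 and Zic1 had start sites both in and outside peaks, and CpG content overlapped between them at Pax6 and Otx2 but not at Zic1. Over all 9 genes, the median ratio was 0.738 over the 12 sites in a peak and 0.578 over the 31 outside, and the ranges overlapped (0.568 to 0.854 and 0.141 to 0.848). At Pax6, the marked sites had ratios of 0.568 to 0.586, and 8 unmarked sites had 0.6 or more. The highest of these, 0.848 with 73 CpG in 1000 bp, were at 7228 and 7229 bp downstream of the 5′ end. At Otx2, the marked site had a ratio of 0.769 and 6 unmarked sites had 0.6 or more, up to 0.785 at 8713 bp downstream. Most of these unmarked sites of Pax6 and Otx2 lay close together and shared much of their 1000 bp, so they are not separate stretches. The Otx2 sites at 6301 to 6311 bp downstream held 27 or 28 CpG, and those at 8298 and 8713 bp held 51 and 53, against 60 at the marked site. At Zic1, the 2 marked sites had ratios of 0.719 and 0.791 and the unmarked site 0.545.

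Other genes started within the same peaks at 5 of the 9 genes. The share over all coding genes with a marked start site was not computed, so this count is a description only. The Otx2 peak also held the start of the long non-coding RNA gene Otx2os1 on the opposite strand, 153 bp from that of Otx2, and of Gm49154. The Pax6 peak held 2 start sites of the antisense gene Pax6os1. The Neurod1 peak held a start site of the protein-coding gene Cerkl on the same strand, 34 bp from that of Neurod1, and 1 of Gm26755. The Pou3f1 peak held a start site of the antisense gene Gm2164, and the Sox1 peak 1 of Gm25239, annotated as a miRNA gene. At these genes the H3K4me3 of the factor and of its neighbour cannot be told apart. The peaks of Neurog1, Neurog2, Olig2 and Zic1 held no start site of another gene.

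No ASH2L peak lay in the window of any of the 9 genes, that is 0 of 9 genes, which allows a share of up to 33.3% by the limit of 3 counts for a count of 0 (upper Wilson bound 29.9%). The background was 10.4% of all coding genes, and 7.03% of those with windows as long as these, both within either limit. The nearest ASH2L peak to Neurog2 was at chr3:127639893-127640387 with 22 tags, 6758 bp downstream of the 5′ end and outside the gene. For the other 8 genes, the nearest ASH2L peak lay between 116556 bp (Neurog1) and 5311559 bp (Otx2) from the 5′ end. The median ASH2L peak held 32 tags, and a missing ASH2L peak means only that the merged HA library gave no peak at the cutoff.

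Within 20 kb on either side of the 5′ end, each held 2 to 5 H3K4me3 peaks. The median over the 9 was 3 peaks, 970 tags and 9016 bp covered, beside 3 peaks, 781 tags and 5720 bp over coding genes with a marked start site. Pou3f1 had the most in this stretch, with 1529 tags and 13880 bp covered, and Otx2 the least, with 716 tags and 4951 bp.

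A list of 22 paralogues of the 9 genes (a selection from the Pax, Sox, Otx, Neurog, Neurod, Olig, Pou3f and Zic families) carried H3K4me3 in the window in 20 of 22 cases and on a start site in 17. The median start-site peak of the list was 3823 bp long. Zic2, which acts in forebrain development, had the longest with 7950 bp and 1515 tags, and Pou3f3 had 6923 bp and 817 tags. No peak was listed for Sox2, a factor of both ES cells and neural progenitors, or for Crx, a photoreceptor factor. The nearest H3K4me3 peak lay 25135 bp from the 5′ end of Sox2, whose CpG ratio was 0.961, and 13985 bp from that of Crx, whose ratio was 0.0694. Neurod2 alone among these 22 had an ASH2L peak, a peak of 570 bp with 27 tags in all, with its summit at -4998 bp from the 5′ end and no H3K4me3 peak over it.

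Of 28 further neural transcription factors, 25 had H3K4me3 in the window and 22 on a start site, with a median start-site peak of 3748 bp. Sox11 had the longest, with 7172 bp and 1017 tags. No peak was listed for Six3, Gbx2 and Sox21, whose nearest H3K4me3 peaks lay 16778, 7828 and 7958 bp from the 5′ end. Their CpG ratios were 0.613, 0.884 and 0.728, in classes where most coding genes were marked. ASH2L peaks lay at Pou4f1 (24 tags) and Gsx2 (28 tags), both over H3K4me3.

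**Figure D5:**
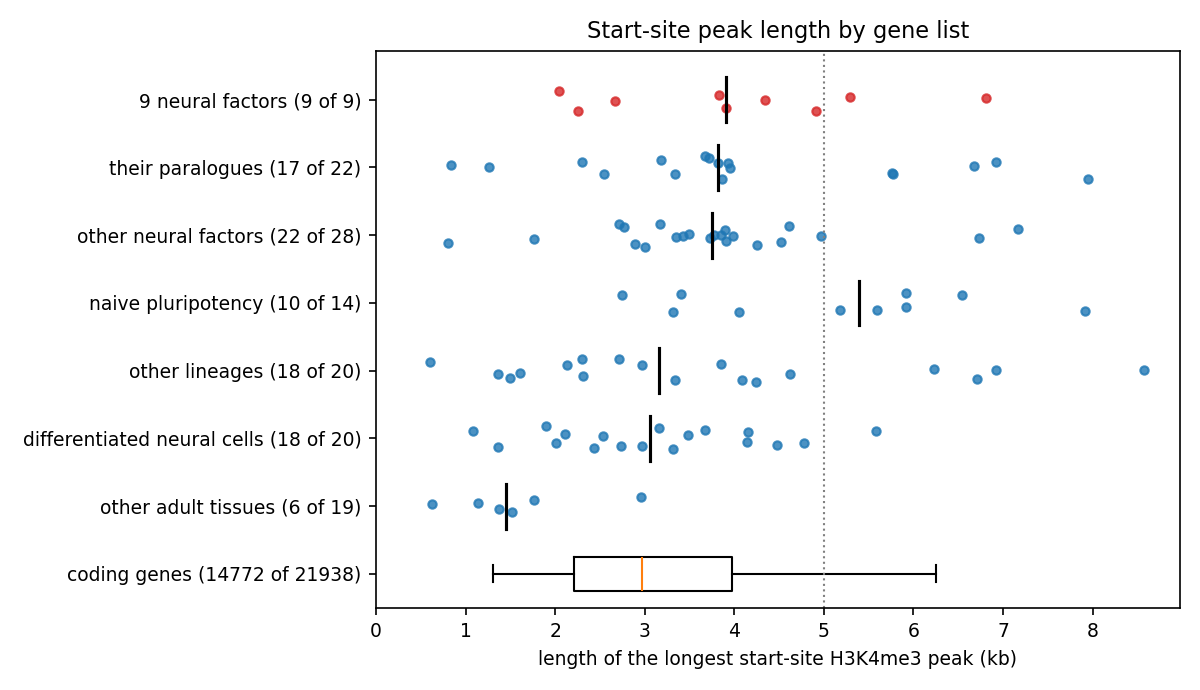
Length of the longest start-site H3K4me3 peak (kb) for each gene of 7 lists that has one, with the list median as a black line, the number of genes with such a peak in brackets, a dotted line at 5 kb, and coding genes as a box of quartiles with whiskers at the 5th and 95th percentile. The 9 neural factors have a median of 3902 bp, their paralogues 3823 bp and naive pluripotency genes 5389 bp.

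Regulators of other lineages, among them T, Eomes, Gata4 and Cdx2, had H3K4me3 on a start site in 18 of 20 cases (all but Tbx6 and Hand1) with a median peak of 3155 bp, and genes of differentiated neurons and glia in 18 of 20 with 3063 bp. Naive pluripotency genes had it in 10 of 14, with a median of 5389 bp and 6 peaks of 5 kb or more, and the exceptions were Pou5f1, Nanog, Nr5a2 and Sall4. Genes of other adult tissues, such as Alb and Ins2, had it in 6 of 19, with a median of 1448 bp. Isl1 stands both in the list of other lineages and in that of the 28 neural factors, so these lists are not separate. The lists were chosen with results of these data known, and their counts are a description.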

How the data were processed

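According to the methods, trimmed reads were mapped to mm10 with Bowtie2, fragments under a size limit were kept, duplicates were merged and peaks were called with MACS. The file headers name MACS 1.4.3, no control library, a p-value cutoff of 1e-05, and tag sizes of 151 bp for ASH2L and 142 bp for H3K4me3, longer than that limit, so which fragments were counted is not settled. The submitters' processing notes also list SAMtools 1.5, bedtools and HOMER 4.10. The deposited tag count is a whole number of tags per peak in the authors' merged libraries, not normalized. The fold enrichment in the deposited lists is the authors' ratio of tags to the background modelled in the same library. The deposited score is the authors' negative log10 of the p-value times 10.

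Peaks were overlapped by at least 1 bp with GENCODE vM21 genes, their 5000 bp upstream and all annotated start sites. Where several peaks lay on start sites of a gene, the longest was used. Percentages have 95% Wilson and tags 95% Poisson intervals, which cover counting error only. All 9 genes were named, and in the lists of paralogues and other neural factors those without a peak in the window, the 3 longest start-site peaks and those with an ASH2L peak. The 9 genes and all lists were chosen with earlier results of these data known. Some items that these rules select are not reported here. For 1 listed gene, Hbb-b1, no annotation was matched. Overlap code was tested on simulated intervals. Python 3.11.15, samtools 1.23.1, pysam 0.24.0, scipy 1.17.1, numpy 2.4.6, matplotlib 3.10.9 and pandas 2.3.3 were used.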

Additional observations from a re-analysis of the deposited data

How the results depend on the processing

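For 8 results, 70 alternative values were computed, of which 57 stayed within 1.5 times the reported count or, for the median length, did not change. Keeping only H3K4me3 peaks at or above the list median in fold enrichment, 6.46, left 2 of 9 genes marked (Neurog1 and Neurog2), both in the window and on a start site, 2 peaks over the 9 genes, 0 peaks of 5 kb or more and a median longest peak of 0 bp, with 16 of 50 paralogues and other neural factors and 11089 coding genes (50.5%). A score of 100 or more left out Olig2 and gave a median length of 3824 bp. Joining peaks over gaps of up to 1 kb gave a median of 4340 bp. Gaps of up to 3 kb, chosen after seeing the data, gave 5296 bp and 5 genes with 5 kb or more, beside 15.6% of coding genes. RefSeq models left Otx2 unmarked. Over all annotated genes, 26800 of 55413 (48.4%) were marked, and over coding genes with windows as long as those of the 9, chosen after seeing the data, 8852 were. The count of genes with an ASH2L peak was 0 under RefSeq gene models too, and most other alternatives can only remove peaks or narrow the window, so that a count of 0 could not move under them. No paired analysis was possible because the duplicates were merged before peak calling. With 1 merged list per antibody, differences between genes in tags rest on counting error alone.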
